A study of Mus musculus with 2 samples.

Results

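Cycling macrophages were taken from the CD45+ leukocytes of mouse hearts as cell barcodes that carried both macrophage and cell division transcripts. Of 19916 barcodes in the 2 libraries, 585 qualified, 180 from sham-operated mice and 405 from mice with transverse aortic constriction (TAC). A barcode needed 300 or more detected genes and no more than 10% mitochondrial unique molecular identifiers (UMIs, each standing for 1 captured transcript). The rule then asked, per 10000 UMIs, for at least 40 from the complement genes C1qa, C1qb and C1qc and under 50 from the neutrophil calprotectin genes S100a8 and S100a9. In raw UMIs it asked for at least 3 from Mki67, Top2a and Birc5 together, under 3 from the T cell genes Cd3d, Cd3e and Cd3g, and under 3 from Hmga2. Mki67 coats mitotic chromosomes, Top2a untangles DNA strands, and Birc5 is a subunit of the complex that corrects chromosome attachment to the spindle. The levels of these genes in the members follow from the rule and are given below as description only.

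Both groups were wild-type C57BL/6 mice aged 10 weeks, 6 per group in the submitters' design text. TAC ties off part of the aortic lumen, so the heart pumps against a higher load, and sham surgery omits the tie. No source used here gives the time after surgery. Heart cells were released by digestion, sorted for CD45, a surface protein of leukocytes, and profiled in droplets with 10x Genomics chemistry in several droplet wells, which the barcodes do not tell apart. Each group is 1 library in which animals cannot be told apart, so library and operation cannot be told apart either. No test across animals is possible and no p-value is given. Intervals below are 95% intervals that cover counting error only.

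Macrophages of the heart persist partly by dividing in place and partly through blood monocytes that enter the tissue and mature there. Resident macrophages are commonly marked by Lyve1, Folr2 and Timd4, and recently recruited ones by the chemokine receptor Ccr2. A dividing cell first makes the machinery of DNA replication, which E2F factors switch on at the entry to S phase. It then makes the mitotic machinery of G2 and M phase, whose promoters are bound by the MuvB complex together with B-Myb and FoxM1.

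The promoters of these gene groups are shown because the members were defined by transcripts of cell division genes. A script searched RefSeq promoters (GRCm38.p6, 250 bases before to 50 after the annotated start, first entry per gene) on both strands for TTTGAA, the core of the cell cycle genes homology region read by MuvB, for CCAAT, and for the E2F-type words TTTGGCGC and TTTCCCGC. TTTGAA was present in 31 of 43 promoters of the G2 and mitosis list (72.1%), in 4 of 33 of the DNA replication list (12.1%) and in 18.1% of all 27025 promoters. CCAAT was present in 74.4% of the G2 and mitosis promoters, 60.6% of the replication promoters and 37.9% of all. An E2F-type word was present in 10 of 33 replication promoters (30.3%), 4 of 43 G2 and mitosis promoters (9.30%) and 1.63% of all. These are matches of letters, not measured binding sites. Of the rule genes, Mki67 (chr7:135716330-135716629, minus strand) held TTTGAA at positions -116 and -98 from the start, and Top2a (chr11:99024140-99024439, minus strand) at -179 and, as its reverse complement, at -23. Cdc20 (chr4:118437294-118437593, minus strand) and Plk1 (chr7:122159185-122159484, plus strand), which drive mitotic exit and entry, held it at -18 and 31. Mcm6 (chr1:128359656-128359955, minus strand), a subunit of the replicative helicase, held TTTGGCGC at -110 and -47. Of the 9 promoters read in full, Birc5 and the cyclin B1 gene Ccnb1 held no TTTGAA, Pcna held no E2F-type word, and Mcm5 held 1, on the opposite strand. The 5 printed were taken from those with a match on the gene's strand. The sequences run 5′ to 3′ along each gene's strand, and capitals mark TTTGAA (or its reverse complement), or TTTGGCGC in Mcm6.
Mki67: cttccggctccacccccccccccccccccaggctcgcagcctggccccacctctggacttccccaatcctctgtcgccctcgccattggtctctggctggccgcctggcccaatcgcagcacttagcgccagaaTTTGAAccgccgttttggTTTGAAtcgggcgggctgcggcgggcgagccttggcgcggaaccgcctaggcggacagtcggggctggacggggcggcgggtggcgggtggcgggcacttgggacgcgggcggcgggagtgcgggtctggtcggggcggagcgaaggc
Top2a: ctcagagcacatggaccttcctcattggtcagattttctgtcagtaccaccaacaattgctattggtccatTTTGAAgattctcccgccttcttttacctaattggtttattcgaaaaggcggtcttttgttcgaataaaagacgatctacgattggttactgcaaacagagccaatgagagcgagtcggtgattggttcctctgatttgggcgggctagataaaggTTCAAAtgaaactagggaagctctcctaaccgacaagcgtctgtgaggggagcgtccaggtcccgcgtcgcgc
Cdc20: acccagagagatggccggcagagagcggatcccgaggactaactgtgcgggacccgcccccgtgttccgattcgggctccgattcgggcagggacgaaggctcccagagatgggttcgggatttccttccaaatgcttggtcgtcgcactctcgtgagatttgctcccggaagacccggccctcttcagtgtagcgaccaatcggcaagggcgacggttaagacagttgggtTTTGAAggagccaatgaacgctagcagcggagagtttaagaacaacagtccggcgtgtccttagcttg
Plk1: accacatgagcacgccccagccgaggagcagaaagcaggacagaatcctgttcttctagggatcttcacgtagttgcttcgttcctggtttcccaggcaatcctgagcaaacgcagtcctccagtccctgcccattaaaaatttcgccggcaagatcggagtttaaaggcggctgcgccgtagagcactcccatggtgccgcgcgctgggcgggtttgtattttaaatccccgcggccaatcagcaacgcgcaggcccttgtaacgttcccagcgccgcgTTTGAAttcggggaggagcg
Mcm6: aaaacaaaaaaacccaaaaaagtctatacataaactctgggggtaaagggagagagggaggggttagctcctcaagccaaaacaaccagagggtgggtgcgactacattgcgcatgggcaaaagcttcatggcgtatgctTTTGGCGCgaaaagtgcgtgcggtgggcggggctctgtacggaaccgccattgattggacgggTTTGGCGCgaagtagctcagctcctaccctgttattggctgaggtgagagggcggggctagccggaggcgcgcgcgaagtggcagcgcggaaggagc

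Genes of cell division that the rule did not use were abundant in the members. In CPM (a gene's UMIs summed over a class, per 1000000 UMIs of that class), cyclin A2 (Ccna2) stood at 93.5 in sham members and 68.5 in TAC members, against 0.211 and 0.399 in non-cycling barcodes. Non-cycling barcodes are the 2842 sham and 2092 TAC barcodes that met every other criterion and held 0 UMIs of the 3 cycle genes. The mitotic kinase Cdk1 stood at 185 and 141 CPM in members and at 2.88 and 2.63 in non-cycling barcodes. The replication genes Pcna and Mcm5 stood at 198 and 93.5 CPM in sham members and at 165 and 75.04 in TAC members. Per barcode, Cdk1 had at least 1 UMI in 136 of 180 sham and 299 of 405 TAC members, and Pcna in 144 and 325.

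Macrophage markers outside the rule were present as well. The growth factor receptor Csf1r, which carries the survival signal of macrophages, had a UMI in 178 of 180 sham and 398 of 405 TAC members, with medians of 8 and 7 UMIs. Adgre1 (F4/80) had a UMI in 90.6% and 88.6% of them and Cd68 reached 386 and 430 CPM. After thinning every barcode to 2000 UMIs, Csf1r was found in 68.3% of sham members (61.0 to 75.1) and 47.9% of TAC members (42.9 to 52.9), and in 2.14% and 1.35% of fibroblast-marker barcodes of the same libraries, which should lack it. The markers of both division and macrophages were thus present in the class in both libraries.

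The 2 libraries differed in depth and quality, and this bears on every comparison between them. The sham library held 11941 barcodes and 87532984 UMIs, of which 4169 barcodes passed the gene and mitochondrial limits, and the TAC library held 7975 barcodes and 97983083 UMIs, of which 5601 passed. Members had a median of 14416 UMIs and 7.46% mitochondrial UMIs in sham, and 22499 UMIs and 4.14% in TAC. Non-cycling barcodes had medians of 8767 and 13230.5 UMIs. Barcode sequences found in both libraries numbered 35, of which 1 was a sham and 4 were TAC members, and 0 were members in both.

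Cycling barcodes made up a larger share of the macrophages in the TAC library. They were 180 of 3238 C1q barcodes in sham, 5.56% (Clopper-Pearson interval 4.79 to 6.40), and 405 of 2941 in TAC, 13.8% (12.5 to 15.1), where a C1q barcode is one that meets the whole rule except its cycle criterion. The share was 2.48-fold higher in TAC (2.09 to 2.93). Of all kept barcodes, members were 4.32% in sham and 7.23% in TAC, a ratio of 1.67. A deeper barcode reaches 3 UMIs more easily, so the share was recomputed with every C1q barcode thinned to 5000 UMIs. It was then 150 of 3075 (4.88%) in sham and 264 of 2840 (9.30%) in TAC, a ratio of 1.91 (1.57 to 2.31).

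Fibroblast-marker barcodes rarely met the cycle criterion. Fibroblast-marker barcodes with at least 3 cycle-gene UMIs numbered 0 of 188 in sham and 1 of 222 in TAC. The 0 of 188 allows a share of up to 1.60% (3 counts of the total). Fibroblast-marker barcodes had medians of 8594 UMIs in sham and 14319.5 in TAC, against 14416 and 22499 in members. They gauge free RNA only, and not a macrophage caught with another dividing cell. Among kept barcodes with C1q under 40 per 10000, which hold other leukocytes, 15.9% in sham and 5.70% in TAC reached 3 cycle-gene UMIs. The median member held 24 cycle-gene UMIs in sham and 21 in TAC, with highest values of 100 and 148. At least 10 were held by 134 of 180 sham members (74.4%) and 269 of 405 TAC members (66.4%). Counting only those, the share was 4.14% in sham and 9.15% in TAC.

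**Figure D1:**
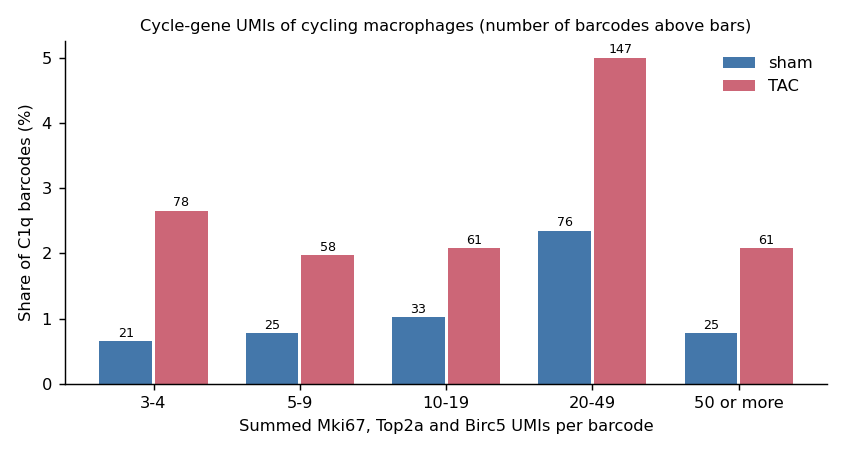
Share of C1q barcodes (vertical axis, %) by summed Mki67, Top2a and Birc5 UMIs (horizontal axis, from the rule's minimum of 3 upward) in the sham and TAC libraries, with the number of barcodes above each bar. TAC bars are higher in every bin, and the bin of 20 to 49 UMIs is the largest in both libraries, with 76 sham and 147 TAC barcodes.

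The estimated ratio between libraries moved with the mitochondrial limit and with the stricter of 2 limits on RNA of other cells. With mitochondrial UMIs limited to 5%, 8 of 70 sham and 280 of 1729 TAC C1q barcodes were cycling, a ratio of 1.42 (0.732 to 2.74), and the small sham number leaves that interval spanning 1. With a limit of 25% the ratio was 3.60. Leaving out every barcode with at least 3 UMIs of any list of other cells left 43 of 1363 sham and 9 of 253 TAC barcodes, a ratio of 1.13 (0.557 to 2.28). That limit is a raw count, which deep barcodes reach more easily. With 9 TAC members, the interval overlaps the 2.09 to 2.93 of the rule as stated. A limit of 20 UMIs of such a list per 10000 was added after the data were seen. It left 168 of 3027 and 371 of 2764, a ratio of 2.42.

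**Figure D2:**
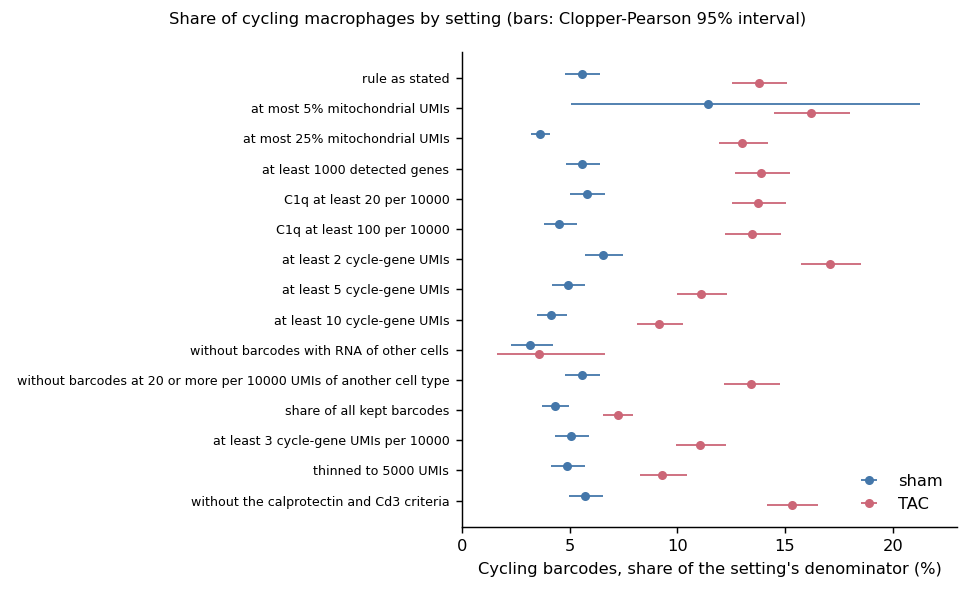
Share of cycling barcodes (horizontal axis, % of the setting's denominator, with Clopper-Pearson 95% bars) under each setting of the rule (vertical axis), for sham and TAC. TAC lies above sham in every setting, and the intervals of the libraries overlap at 5% mitochondrial UMIs and without barcodes with RNA of other cells.

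Barcodes next to the threshold were counted once. Exactly 3 cycle-gene UMIs, just inside, were held by 14 sham and 44 TAC barcodes, and exactly 2, just outside, by 32 and 98. The median replication list level was 15.0 and 5.34 UMIs per 10000 just inside in sham and TAC, and 3.70 and 5.31 just outside. The median G2 and mitosis level was 7.40 and 4.23 just inside, and 2.79 and 3.11 just outside. In the TAC library, barcodes on either side of the threshold were thus close in both lists. Barcodes kept out by 1 other criterion alone were 7 sham and 87 TAC for calprotectin, 15 and 61 for Cd3, 44 and 56 for C1q, 93 and 54 for mitochondrial UMIs, and 4 and 0 for Hmga2.

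Members were spread over the stages of the cycle rather than held at one. The 44 genes of the DNA replication list (Mcm2 to Mcm7, Pcna, Rrm2, Tyms and others) had a median of 31.1 UMIs per 10000 in sham members, from 0 to 82.1, and of 18.8 in TAC members, from 0 to 72.2. The 54 genes of the G2 and mitosis list (cyclins, kinesins, centromere proteins and others) had medians of 56.5 and 36.6, with highest values of 222 and 163. In non-cycling barcodes the medians were 3.27 and 3.43 for replication and 2.33 and 2.09 for G2 and mitosis. Replication UMIs outnumbered G2 and mitosis UMIs in 58 of 180 sham members, 32.2% (25.5 to 39.6), and in 156 of 405 TAC members, 38.5% (33.8 to 43.5). These shares overlap within counting error, and 29 sham and 75 TAC members lay near the divide, with 0.4 to 0.6 of their list UMIs from replication. Thinned to 5000 UMIs, the class was taken again and was smaller. The shares were then 25.5% of 149 sham and 23.6% of 263 TAC barcodes with a list UMI. Changes in depth and in the barcodes counted cannot be told apart there. The stage is a range along 2 summed levels, not a cell type.

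**Figure D3:**
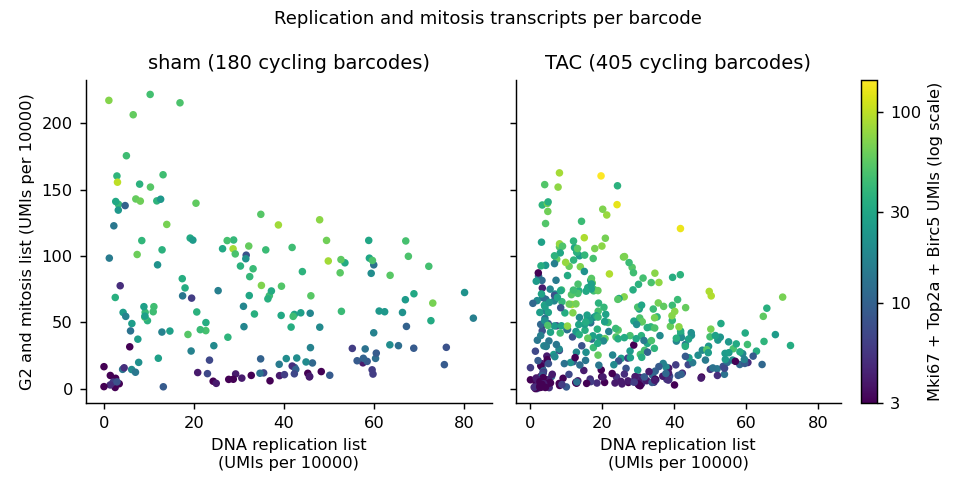
Each point is 1 cycling barcode, with the DNA replication list on the horizontal axis and the G2 and mitosis list on the vertical axis (both in UMIs per 10000), sham left and TAC right, coloured by cycle-gene UMIs on a log scale. Points run along both axes and between them, reaching 82.1 and 222 in sham and 72.2 and 163 in TAC.

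Replication transcripts also occurred outside the members. A replication level at or above the members' lower quartile (10.8 per 10000 in sham, 7.49 in TAC) was reached by 85 of 2842 sham and 260 of 2092 TAC non-cycling barcodes (2.99% and 12.4%). It was reached by 31 of 216 sham and 116 of 444 TAC barcodes with 1 or 2 cycle-gene UMIs (14.4% and 26.1%). Counts of members are thus not counts of all barcodes with replication RNA.

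Against non-cycling macrophages, members were higher per UMI in nearly the whole division programme and lower per UMI in genes of resident macrophages, in both libraries. Among genes with at least 50 UMIs over both classes, 882 of 10959 were at least 2-fold higher in sham members (8.05%) and 395 lower (3.6%). In TAC, 728 of 11054 were higher (6.59%) and 138 lower (1.25%). Since the cycle criterion separated these classes, the counts describe the members and support nothing further. Members were also deeper than non-cycling barcodes, with medians of 14416 against 8767 UMIs in sham.

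In sham members all 43 measured replication genes were past 2-fold higher, and in TAC members all 44, with list medians of 3.18 and 2.72 on the log2 scale (all genes 0.09 and 0.06). Rrm2, the small subunit of ribonucleotide reductase, stood at 72.9 CPM in sham members against 0.246 in non-cycling barcodes, and at 58.6 against 1.13 in TAC. Thymidine kinase Tk1 stood at 103 against 0.948 CPM and at 76.2 against 1.496. The smallest ratio in the list was that of the clamp loader subunit Rfc2, at 2.69-fold in sham and 2.11-fold in TAC. The replication clamp Pcna was 3.41-fold and 3.02-fold higher, since non-cycling barcodes held 58.2 and 54.7 CPM of it.

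In the G2 and mitosis list, 51 of 52 measured genes in sham and 53 of 54 in TAC were at least 2-fold higher, with medians of 6.10 and 5.53. Hmmr, a spindle protein, stood at 129 CPM in sham and 101 in TAC members against 0.211 and 0.299 in non-cycling barcodes. The exception was securin, Pttg1, which keeps sister chromatids from separating until anaphase. It stood at 28.8 CPM in sham members and 42.1 in non-cycling barcodes, and at 48.8 and 50.7 in TAC.

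Chromatin and tubulin genes linked to proliferation were 2-fold higher in 23 of 23 cases in sham and 21 of 23 in TAC. Stmn1, which destabilises microtubules, stood at 1527 CPM in sham and 913 in TAC members against 38.7 and 41.9 in non-cycling barcodes. DNA repair genes were higher in 14 of 20 and 15 of 21 cases, led by Rad51ap1 and Brca1 in sham. Nucleotide and folate synthesis had smaller medians of 0.82 and 0.61, with 11 of 26 and 6 of 26 genes past 2-fold. Nuclear genes of oxidative phosphorylation had medians of 0.30 and 0.16, and 0 of 43 passed 2-fold in either library.

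Outside the cycle lists, the genes with the highest ratios in both libraries were histone genes and division genes. Pclaf, a Pcna partner, stood at 294 CPM in sham and 275 in TAC members against 0.667 and 2.59 in non-cycling barcodes. Cks1b, a cyclin kinase subunit, was 39.7-fold and 19.3-fold higher. Gmnn, which blocks a further round of replication, was 11.4-fold and 5.63-fold higher, and the E2F cofactor Atad2 was 8.87-fold and 7.66-fold higher. Ccdc34 was 4.56-fold and 4.14-fold higher. The other 7 were Hist1h3c, Hist1h2ab, Hist1h1b, Hist1h2ap, Hist1h2ae, Hist1h4d and Hist1h1e, with Hist1h1b at 654 and 702 CPM in members and 4.63 and 7.35 outside. Histone values are uncertain, because these genes have near-identical copies and many of their transcripts lack the poly(A) tail.

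Regulators of the cycle did not move as 1 group. Of 15 measured factors and D cyclins in sham, 10 were 2-fold higher, and 10 of 16 in TAC. E2f7 stood at 20.2 and 9.29 CPM in members against 0.140 and 0.133 outside, and Foxm1 at 39.4 and 27.8 against 0.456 and 0.399. Cyclin D1 (Ccnd1), which couples growth factor signals to cycle entry, differed little, at 130 CPM in sham members against 135 outside and 315 against 323 in TAC. Myc stood at 19.5 against 21.6 CPM and at 13.6 against 15.5. Among cycle brakes, the p18 inhibitor Cdkn2c was 6.13-fold and 5.92-fold higher in members. Cdkn1a (p21) stood at 958 CPM in sham members against 584 outside, and at 688 against 727 in TAC. No p53 target gene of 14 measured passed 2-fold in either library.

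**Figure D4:**
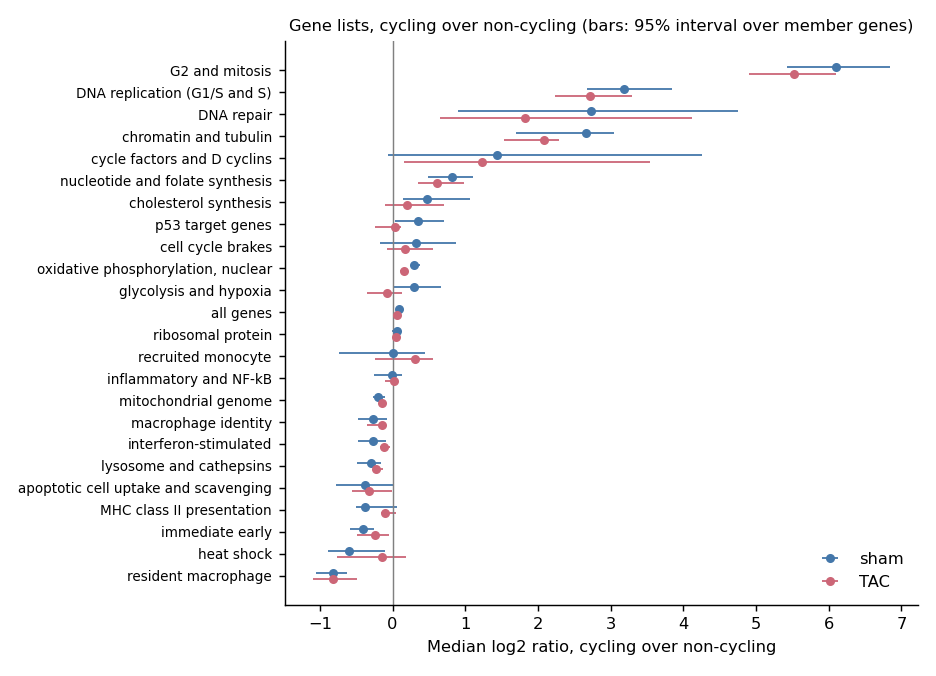
Median log2 ratio of cycling over non-cycling barcodes (horizontal axis) for each gene list (vertical axis), in sham and TAC, with the 95% interval of the median over the measured genes of a list. Markers of other cells are not plotted, and among the lists shown G2 and mitosis and DNA replication lie highest and resident macrophage genes lowest, at -0.82 in both libraries.

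Per UMI, members carried less RNA of the resident macrophage genes than non-cycling barcodes. Of the resident list, 7 of 22 genes in sham and 7 of 21 in TAC were at least 2-fold lower, with medians of -0.82 in both libraries. In the opposite direction, 0 of 22 were 2-fold higher in sham and 2 of 21 in TAC, the lectin gene Cd209f (4.54 against 1.86 CPM) and Retnla (229 against 109 CPM). Both rested on few barcodes. Cd209f had 45 UMIs in 6 of 405 TAC members, and 1 barcode held 71.1% of them. Retnla had a UMI in 28 TAC members, and 1 held 30.4% of its UMIs. Lyve1, a hyaluronan receptor, stood at 466 CPM in sham members and 949 in non-cycling barcodes, and at 212 and 618 in TAC. Timd4, a receptor for dying cells, stood at 66.1 and 125 CPM and at 68.5 and 141. After thinning to 2000 UMIs, Timd4 was found in 8.33% (4.74 to 13.4) of sham members and 20.1% (18.6 to 21.6) of non-cycling barcodes, and in 10.1% (7.36 to 13.5) and 18.8% (17.2 to 20.6) in TAC. Fibroblast-marker barcodes held it in 0.535% and 0.450%. Unthinned, the shares were 42.2% and 52.99% in sham, and 34.6% and 43.7% in TAC. Median depths were 14416 and 8767 UMIs in sham members and non-cycling barcodes, 22499 and 13230.5 in TAC, and 8594 in sham fibroblast-marker barcodes. Members were deeper, so a lower CPM is not the same as fewer UMIs per barcode. In raw UMIs, Folr2 had medians of 9 in both sham classes, and of 2 in TAC members against 3 outside. Lyve1 had medians of 5 against 6 in sham, and Timd4 of 0 against 1. Both had medians of 0 in both TAC classes.

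Further genes were also lower per UMI in members of both libraries. Apoe, a lipid carrier, stood at 11583 CPM in sham members against 21397, and at 7247 against 13278 in TAC. The haem-degrading enzyme Hmox1 was 1.77-fold lower in sham and 2.27-fold lower in TAC. The bridging ligand Gas6 was 1.75-fold and 2.13-fold lower. The lowest ratios were those of Slfn5 (2.69-fold and 2.70-fold lower) and of the B cell attractant Cxcl13 (2.43-fold and 2.99-fold lower). Wfdc17, Fcgrt, Ccl6 and Hspa1b were between 1.79-fold and 2.38-fold lower. Pan-macrophage genes differed less, with medians of -0.26 and -0.15 and 0 of 20 past 2-fold in either direction, and the phagocytic receptor Mertk was closest, at 1.98-fold and 1.91-fold lower.

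The share of dividing barcodes was then taken within subsets of macrophages at 5000 UMIs per barcode, which left out 163 sham and 101 TAC C1q barcodes. The subset genes were read after this thinning as well. Cycling barcodes were deeper, so they kept a smaller part of their subset-gene UMIs. The part of this in the shares was not tested. Macrophages with at least 3 UMIs of Lyve1, Folr2 and Timd4 together were dividing in 101 of 2465 cases in sham, 4.10% (3.35 to 4.96), against 8.03% (6.00 to 10.5) of the rest. In TAC the shares were 6.80% (5.50 to 8.29) and 11.5% (9.92 to 13.2). With at least 1 UMI as the limit, the sham shares were 4.80% and 5.52%, a ratio of 0.868 (0.544 to 1.39). Macrophages with a Ccr2 UMI were dividing in 5.80% of sham cases (3.83 to 8.39) and 12.9% of TAC cases (10.2 to 16.1), against 4.72% and 8.46% of those without. The sham difference lay within counting error. Within each of these subsets, and in the rest beside it, the TAC share was above the sham share.

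Macrophages high in MHC class II genes, which present antigen to T cells, divided less often than the rest in the sham library and more often in the TAC library. With at least 50 UMIs of Cd74, H2-Aa, H2-Ab1 and H2-Eb1, 51 of 1567 sham barcodes were cycling, 3.25% (2.43 to 4.26), against 99 of 1508 others, 6.56% (5.37 to 7.93). In TAC, 232 of 2269 were cycling, 10.2% (9.01 to 11.5), against 32 of 571 others, 5.60% (3.86 to 7.82). The direction in each library was the same with 20 or 100 UMIs as the limit, and at 100 the TAC ratio was 1.30 (0.998 to 1.68). Among barcodes under 50 UMIs the TAC share was thus not above the sham share. The difference between libraries was not tested. Per barcode, the MHC class II list had a median of 51.5 UMIs per 10000 in sham members and 141 in non-cycling barcodes, against 374 and 400 in TAC.

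Between libraries, TAC members were higher in interferon-stimulated genes and in 7 of 12 MHC class II genes than sham members. They were lower in resident macrophage and heat shock genes. Among 9405 genes with at least 50 UMIs over both, 513 were at least 2-fold higher (5.45%) and 602 lower (6.4%), with a median over all genes of -0.12. Non-cycling macrophages gave 627 of 11656 higher (5.38%) and 1018 lower (8.73%). The values of both classes are set side by side below, and whether the difference between libraries itself differed between the classes was not tested. Mitochondrial UMIs were lower in TAC in both classes, and their part in these differences was not tested.

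The interferon-stimulated list had 34 of 40 measured genes past 2-fold higher in TAC members, with a median of 2.21, and 35 of 40 in non-cycling barcodes, with a median of 2.06. Gbp2, a guanylate-binding protein of cell-autonomous defence, stood at 15.4 CPM in sham members and 616 in TAC members, 40.02-fold higher (29.9 to 54.9). Unthinned, Gbp2 had a UMI in 28 of 180 sham and 384 of 405 TAC members. Thinned to 2000 UMIs it was found in 2.22% of sham members (0.609 to 5.59) and 59.5% of TAC members (54.5 to 64.3), and in 8.56% and 60.4% of fibroblast-marker barcodes. The share of members with Gbp2 was thus not above that of fibroblast-marker barcodes in either library. In those fibroblast-marker barcodes the interferon-stimulated list had medians of 7.30 UMIs per 10000 in sham and 85.0 in TAC. Their own expression and free RNA cannot be told apart here, and the part of free RNA was not tested. Cxcl9, which attracts T cells, stood at 3.08 and 157 CPM, and 66.7% of its 9 sham UMIs came from 1 barcode. Cxcl9 had a UMI in 4 of 180 sham and 141 of 405 TAC members unthinned, and in 0.556% and 12.3% (9.30 to 16.0) after thinning. Of TAC fibroblast-marker barcodes, 13.5% had it unthinned and 4.50% (2.18 to 8.13) thinned. Per barcode, the list had a median of 12.1 UMIs per 10000 in sham members (1.44 to 155) and of 76.7 in TAC members (5.76 to 328), and the groups overlapped in their ranges.

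The genes with the highest ratios of TAC over sham members were mostly of this kind. Gbp2b was 219-fold higher (74.8 to 1062, from 1.03 CPM in sham), Gbp4 53.7-fold, Gbp5 22.8-fold and the GTPase Iigp1 22.5-fold. Il18bp, the soluble inhibitor of interleukin-18, was 50.1-fold higher and the Fc receptor Fcgr4 23.9-fold. Fam26f was 28.6-fold higher. Ly6a (Sca-1) stood at 20.9 and 1413 CPM, 67.7-fold higher (52.7 to 88.5). After thinning, Ly6a was found in 2.78% of sham and 64.9% of TAC members, but also in 51.3% and 89.6% of fibroblast-marker barcodes, which express it. Copies of the Gbp family are similar in sequence, and no source used here says how reads were divided among them.

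The neutrophil gene S100a8 and the monocyte gene Plac8 were also among the 12 highest, at 18.7-fold and 20.7-fold. The rule limits S100a8, and the whole neutrophil list stood at 56.8 CPM in sham members and 550 in TAC members, against 130 and 432 in non-cycling barcodes. At least 3 UMIs of that list were held by 12 of 180 sham and 362 of 405 TAC members, with medians of 0 and 6 UMIs. In fibroblast-marker barcodes, which should lack calprotectin, S100a8 and S100a9 together had a median of 0 per 10000 in sham, with a UMI in 10.6%, and of 1.91 in TAC, with a UMI in 93.2%. TAC members had a median of 2.25, with a UMI in 98.3%, close to that background. Without barcodes with RNA of other cells, Plac8 was lower in TAC, with a log2 ratio of -2.27, on 9 TAC members.

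Of 12 measured MHC class II genes, 7 were at least 2-fold higher and 2 lower in TAC members, with a median of 1.21, against 0.84 in non-cycling barcodes. The intervals of these medians over genes took in both directions, from -0.69 to 1.43 in members and from -0.25 to 1.15 in non-cycling barcodes. The invariant chain Cd74 stood at 5858 CPM in sham and 13898 in TAC members, and H2-Eb1 at 2367 and 5833. Ctss, the protease that trims the invariant chain, was 3.94-fold higher (3.76 to 4.14). H2-Oa, part of an inhibitor of peptide loading, and H2-DMb2, of the loading catalyst, were the 2 lower genes, at 8.90 and 12.7 CPM in sham and 4.24 and 6.16 in TAC.

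Of 28 inflammatory and NF-kB genes, 10 were 2-fold higher and 0 lower in TAC members, with a median of 0.57 against 0.83 in non-cycling barcodes. The monocyte attractant Ccl7 stood at 550 and 2346 CPM and Il1b at 302 and 669. Of 18 recruited monocyte genes, 10 were higher and 2 lower, with a median of 1.14, against 0.88 in non-cycling barcodes. Without barcodes with RNA of other cells, which left 43 sham and 9 TAC members, that median was -0.37. The largest ratios were those of the matrix proteoglycan Vcan, with 0 UMIs in sham and 13.3 CPM in TAC members (at least 12.98-fold higher with a floor of 3 UMIs), and of Chil3, at 3.08 and 99.8 CPM. Ccr2 differed little, at 122 and 110 CPM. Fn1 and S100a4 were the lower ones, at 107 and 1017 CPM in sham and 18.5 and 409 in TAC. Fn1 rested on few barcodes, 26 of 180 in sham, of which 1 held 27.5% of the UMIs, and without barcodes with RNA of other cells its log2 ratio was 0.21.

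Resident macrophage genes were lower in TAC members, with 14 of 21 measured genes past 2-fold, 1 higher, and a median of -1.22. In non-cycling barcodes the median was -1.18. At no more than 5% mitochondrial UMIs, on 8 sham members, the median in members was -0.37, and without barcodes with RNA of other cells, on 9 TAC members, it was -2.03. The eosinophil attractant Ccl24 stood at 304 CPM in sham and 13.1 in TAC members, 23.1-fold lower (19.2 to 28.0), with a UMI in 135 of 180 and 46 of 405 members. Thinned, it was found in 35.0% and 2.22% of members. The scavenger receptor Cd163 was 3.02-fold lower and the chemokine Pf4 3.86-fold lower, from 3655 to 948 CPM. Timd4 differed little, at 66.1 and 68.5 CPM. The exception was the chemokine Ccl8, which draws monocytes, at 118 and 1446 CPM, and 1 sham barcode held 26.3% of its sham UMIs. In such sums, fewer barcodes with a gene and less RNA per barcode cannot be told apart. Per barcode, the resident list had a median of 123 UMIs per 10000 in sham members (7.63 to 310) and of 33.4 in TAC members (2.57 to 489).

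Heat shock and immediate early genes were lower in TAC members, with medians of -1.11 and -0.67 and with 7 of 14 and 5 of 19 genes past 2-fold. The chaperones Hspa1a and Hspa1b were 6.77-fold and 10.5-fold lower, and Hspb1 and the co-chaperone Dnajb1 4.07-fold and 4.85-fold lower. Hspa1a and Hspa1b are near-identical copies, so the split between them is uncertain. The transcription factor Klf4 was 4.21-fold lower, at 1015 and 241 CPM. The remaining genes among the 12 lowest were Raph1, Fxyd2, Igfbp4 and Ltc4s, between 3.77-fold and 4.36-fold lower. Non-cycling barcodes had medians of -1.47 and -0.79 for these lists. Both lists are known to respond to tissue digestion, and the part of handling in these values was not tested.

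**Figure D5:**
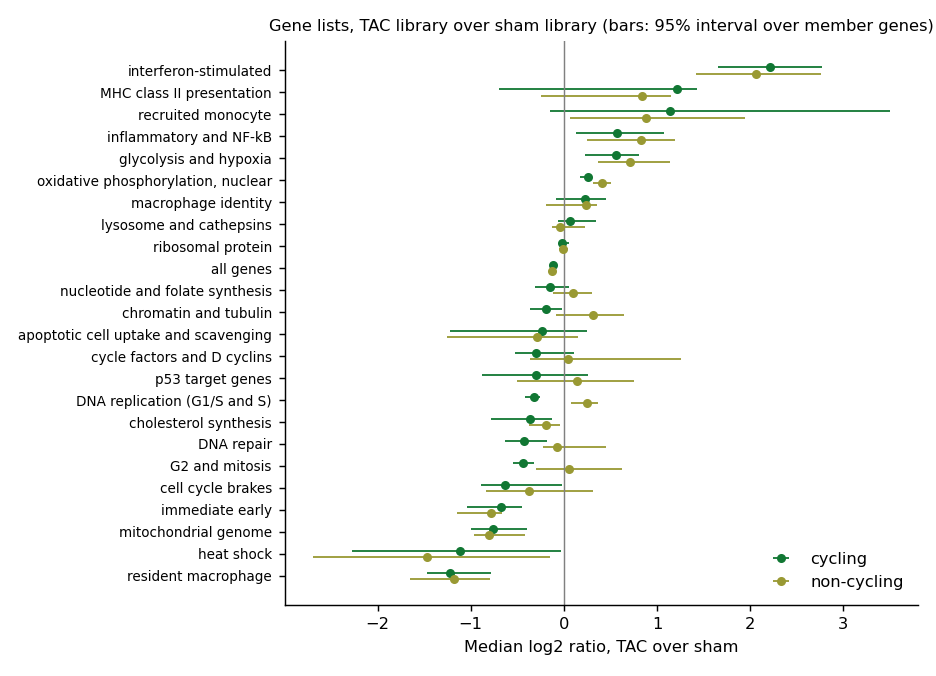
Median log2 ratio of the TAC over the sham library (horizontal axis) for each gene list (vertical axis), in cycling and non-cycling barcodes, with the 95% interval of the median over the measured genes of a list. Among these lists, which leave out the markers of other cells, interferon-stimulated genes lie highest and resident macrophage genes lowest in cycling barcodes, and the DNA replication list lies at -0.32 in cycling and 0.25 in non-cycling barcodes.

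The division programme itself was slightly lower per UMI in TAC members. The limit of 3 cycle-gene UMIs is a raw count, and TAC members were deeper, with medians of 22499 against 14416 UMIs. A deeper barcode reaches that limit at a lower level per UMI, and the part of this in the values was not tested. The replication list had a median of -0.32 with 0 of 44 genes past 2-fold, and the G2 and mitosis list a median of -0.44 with 3 of 54 lower (Nusap1, Ect2 and Ncapd2). Nusap1, a spindle microtubule protein, stood at 192 and 94.2 CPM. Members with at least 10 cycle-gene UMIs gave medians of -0.21 and -0.36. At most 5% mitochondrial UMIs gave 0.01 and -0.80, on 8 sham members. The D cyclins Ccnd1 and Ccnd2 were the 2 factors past 2-fold higher, at 130 and 315 CPM and at 45.5 and 92.5. Non-cycling barcodes gave nearly the same for Ccnd1, at 135 and 323 CPM. Thinned to 2000 UMIs, Ccnd1 was found in 22.2% of sham and 42.2% of TAC members, and in 22.5% and 17.1% of fibroblast-marker barcodes. The anti-proliferative gene Btg2 was 2.43-fold lower, at 864 and 356 CPM.

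RNA of other cell types made up few UMIs in most members but not in all. Only 43 of 180 sham and 9 of 405 TAC members held under 3 UMIs of every such list. B cell genes had medians of 2 and 4 UMIs, with at least 3 in 47.2% and 66.2% of members. Endothelial genes summed to 233 and 198 CPM, with a highest value of 532 in 1 TAC member. Fibroblast genes summed to 116 CPM in sham and 343 in TAC members, with medians of 1 and 3 UMIs per barcode and a highest value of 597. Natural killer genes summed to 35.3 and 219 CPM, with medians of 0 and a highest value of 398 in 1 TAC member. Haemoglobin and other erythroid genes summed to 59.9 and 1039 CPM, with medians of 1 and 2 UMIs, and 1 TAC member held 9313 of them. T cell genes, limited by the rule, summed to 40.1 and 43.8 CPM. The part of barcodes with RNA of 2 cells in the gene ratios was not tested, and no doublet caller was run.

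A set of sham members carried the dendritic cell lectin gene Cd209a. It had 208 UMIs in 15 of 180 sham members, up to 60 in 1 barcode, and 0 UMIs in 405 TAC members, against 194 UMIs in 54 of 2842 sham and 65 UMIs in 10 of 2092 TAC non-cycling barcodes. With a floor of 3 UMIs in the TAC class, Cd209a was at least 235-fold lower in TAC members. The dendritic list summed to 101 CPM in sham members and 30.2 in TAC members. At least 3 of its UMIs were held by 10.6% of sham and 8.15% of TAC members, against 3.55% and 2.63% of shallower non-cycling barcodes. Other genes of the list were low. Flt3 had a UMI in 6 of 180 sham and 6 of 405 TAC members. Zbtb46 stood at 5.14 and 1.72 CPM.

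In summed CPM, Retnla and Gdf15 differed in direction between the libraries when members were set against non-cycling barcodes. Retnla, secreted by alternatively activated macrophages, stood at 623 CPM in sham members and 1485 in non-cycling barcodes, but at 229 and 109 in TAC. Few members carried it, 49 of 180 in sham and 28 of 405 in TAC, and 1 barcode held 22.5% of its sham and 30.4% of its TAC UMIs. Of TAC non-cycling barcodes, 107 of 2092 carried it, and 1 of them held 42.1% of the UMIs. Gdf15, a stress-induced cytokine, stood at 185 and 118 CPM in sham and at 75.8 and 146 in TAC. It had a UMI in 28.9% of sham and 24.2% of TAC members, and in 19.1% and 19.9% of non-cycling barcodes. Thinned to 2000 UMIs, Gdf15 was found in 13.9% of sham and 9.38% of TAC members, and in 1.07% and 2.25% of fibroblast-marker barcodes. Non-cycling barcodes held it in 9.59% and 9.06% after thinning. The lower Gdf15 of TAC members was thus seen in summed CPM and not in the share of barcodes with it.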

How the data were processed

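Per the submitters' processing notes, reads were processed with Cell Ranger 3.0 on mm10. The authors deposited raw UMI counts for 31053 features, 1 matrix per library, and no source used here says how cell barcodes were called. Barcodes were filtered by the stated rule and UMIs were summed per class and scaled to CPM. Log2 ratios used a prior of 0.5 UMIs, and genes with at least 50 UMIs over both classes were called at 2-fold. Shares have exact Clopper-Pearson intervals, CPM exact Poisson intervals and folds exact conditional intervals at 95%, all for counting error only, and list medians have distribution-free intervals over genes. Fibroblast-marker barcodes had at least 40 UMIs of Col1a1, Col1a2, Col3a1 and Dcn together and under 10 C1q UMIs per 10000. Thinning kept 2000 or 5000 UMIs per barcode. No doublet caller was run. Barcodes with RNA of other cells were left out as an alternative.

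The members and gene lists were chosen with earlier results of these data known, and 2 of 597 list symbols were not found. Named genes were the 12 highest and 12 lowest ratios over genes reaching 100 CPM in one of the groups, excluding predicted, sex-linked, receptor segment, haemoglobin, ribosomal protein and mitochondrial genes, plus up to 2 highest and 2 lowest of each described list and the markers. The highest cycling over non-cycling ratios left out the cell cycle lists and took the less extreme of the libraries. Genes named beyond this, such as Cdkn1a, Myc, Il1b, Retnla and Gdf15, were chosen after their values were seen. Sums and intervals used pandas 2.3.3, scipy 1.17.1 and numpy 2.4.6 under Python 3.11.15, with figures from matplotlib 3.10.9, and the scripts were tested on simulated data. Some genes that the rule selects are not reported here.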

Additional observations from a re-analysis of the deposited data

Results flagged for a closer look

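In the TAC library, 87 barcodes met every criterion of the rule except the calprotectin limit and 61 every criterion except the Cd3 limit, against 7 and 15 in sham. They carry cell division transcripts together with C1q and lie outside the class described above. With both criteria dropped, an alternative added after the data were seen, the cycling share was 5.71% in sham and 15.3% in TAC.

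The log2 ratio of the cycling share in MHC class II high over low macrophages was -1.01 in sham and 0.87 in TAC. For Gdf15 the log2 ratio of cycling over non-cycling barcodes was 0.65 in sham and -0.94 in TAC, and for Retnla it was -1.25 and 1.07. These stand out because the libraries point in opposite directions. The gene ratios rest on summed UMIs, and the share of TAC barcodes with Gdf15 was 24.2% in members and 19.9% in non-cycling barcodes. With 1 library per group the differences were not tested.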

How the results depend on the processing

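No paired analysis was possible because each group is 1 library and no replicate numbers are shared, and for the same reason no replicate could be left out. The limits of at least 10 cycle-gene UMIs, of 20 or more UMIs per 10000 of another cell type, the share without the calprotectin and Cd3 criteria, and the other UMI limits of the subsets were chosen after seeing the data. The log2 ratio of the share, 1.31 as reported, was 0.50 at 5% and 1.85 at 25% mitochondrial UMIs, 1.57 with C1q at least 100 per 10000, 0.17 without barcodes with RNA of other cells, 0.74 over all kept barcodes and 0.93 thinned to 5000 UMIs. In the other 8 of 14 alternatives it moved by less than the counting interval. The Lyve1, Folr2 or Timd4 log2 ratio in sham was -0.20 with a limit of 1 UMI.

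The counts of genes past the fold moved with the filters. At 5% mitochondrial UMIs, 1073 genes were higher and 1239 lower in TAC members, and 120 higher and 126 lower in sham members than in non-cycling barcodes. Genes with at least 10 UMIs gave 879 and 1229 between libraries, 1406 and 958 against sham non-cycling barcodes, and 462 lower in TAC. At least 200 UMIs gave 313 and 236, 456 and 148, and in TAC 454 and 50. A 1.5-fold limit gave 1000 and 1840, 1928 and 1025, and 1461 and 538. Thinning to 2000 UMIs gave 238 and 155 between libraries and 304 higher in TAC members than outside. Without barcodes with RNA of other cells, on 43 sham and 9 TAC members, the counts were 98 and 170 between libraries and 340 and 422 in TAC. Genes lower in TAC members than outside were 91, 218 and 282 with at least 2, 5 and 10 cycle-gene UMIs, and 233 against deep non-cycling barcodes.

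Some list medians changed sign. As reported, replication (between libraries) was -0.32, recruited monocyte genes 1.14, and in TAC over non-cycling ribosomal protein genes 0.049, inflammatory genes 0.02 and heat shock genes -0.14. Between libraries the replication median was 0.012 at 5% mitochondrial UMIs, and ribosomal protein genes in TAC members over non-cycling had -0.013 with sums scaled by the median ratio. The replication median between libraries was -0.49 with C1q at least 100, -0.21 with at least 10 cycle-gene UMIs, -0.25 without barcodes at 20 per 10000 of another type, -0.47 with each barcode weighted equally, -0.20 with median scaling and -0.41 thinned. The G2 and mitosis median was -0.80 at 5% mitochondrial UMIs, -0.28 without RNA of other cells and -0.58 with equal weights. The MHC class II median was 1.65, 1.52, 1.70, 1.44 and 1.55 with C1q at least 100, at least 10 cycle-gene UMIs, no RNA of other cells, equal weights and thinning. The resident median was -0.37 at 5% mitochondrial UMIs and -2.03 without RNA of other cells, where recruited monocyte and interferon medians were -0.37 and 1.55. In sham members over non-cycling, the MHC class II median was -0.77 with C1q at least 100, -0.50 and -0.62 with at least 5 and 10 cycle-gene UMIs, -0.64 without RNA of other cells, -0.60 with equal weights and -0.72 thinned. There the inflammatory median was -0.84 at 5% mitochondrial UMIs and the G2 and mitosis median 5.07 thinned. In TAC, the inflammatory median was 0.042 and -0.12 with at least 2 and 10 cycle-gene UMIs and -0.38 without RNA of other cells, where resident and heat shock medians were -1.55 and 0.47, and the replication median was 2.20 thinned. Of the named genes, Plac8 (-2.27) and Fn1 (0.21) changed direction between libraries without RNA of other cells. The causes were not tested, except that fewer barcodes or genes remain under the stricter limits.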
